A study of Homo sapiens with 12 samples.

Results

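Of 9 measured genes for the cell-cell junctions of HK-2 cells, none passed the test for an effect of Fk at 12 h or at 48 h, and 2 changed between the times. Over all 10784 genes tested, 0% passed for Fk at either time. Over time 21.5% of them passed in control and 23.2% in Fk cultures. CDH2, which encodes N-cadherin, fell from 12 h to 48 h in control cultures and in Fk cultures. JUP, which encodes plakoglobin, was lower at 48 h than at 12 h in Fk cultures. In each treatment, all 48 h values of CDH1, for E-cadherin, and OCLN, for occludin, lay above every 12 h value of that treatment. Their spread between replicates at 48 h was wide, however, and neither passed. The 10 genes were given as a list, CDH1, CDH2, CTNNB1, JUP, DSP, PKP2, TJP1, OCLN, CLDN1 and F11R. Of these, 9 were matched to a probe set that carries 1 gene symbol, all 9 were bright enough to be tested, and F11R was not analysed here. They are 9 of 10784 genes tested and 9 of 19775 genes with such a probe set.

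HK-2 is an established line grown from the proximal tubule of a human kidney, and every array holds RNA of this line. Cultures received the treatment the labels call Fk, whose name they do not expand, or control vehicle, and were collected after 12 h or 48 h. That gives 4 groups of 3 arrays, called biological replicates in the labels: Fk at 12 h, control at 12 h, Fk at 48 h and control at 48 h. All groups share the same handling before treatment, with 700000 cells seeded per well 24 h earlier in 2 ml of medium with 5 mM glucose, EGF, hydrocortisone, insulin, transferrin and selenite, and about 90% confluency when treatment began. The culture was 1 line, so p-values measure the spread between these cultures and not between people. Nothing in the labels says how far the replicates were cultured apart.

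Epithelial cells hold to each other through junctions of several kinds. In adherens junctions, classical cadherins bind across the gap between cells and are tied to actin by catenins. In desmosomes, plakoglobin and plakophilin link desmosomal cadherins to desmoplakin, which holds keratin filaments. Tight junctions, made of claudins, occludin and junctional adhesion molecules on a scaffold of ZO proteins, seal the space between cells and set what passes there. Proximal tubule cells of the human kidney are known to carry N-cadherin, whereas E-cadherin is the classical cadherin of more distal segments. A fall of E-cadherin with a rise of N-cadherin is commonly read as a sign of a less epithelial state.

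Values are log2 GCRMA signals, so 1 unit is a doubling of signal, and a level of one gene is not compared with that of another. Array medians ran from 2.85 to 2.94, and a gene was tested if its brightest probe set reached 4 on at least 3 arrays. The first principal component of the tested genes, with 55.4% of the variance, put the 12 h arrays at scores from -36.0 to -30.6 and the 48 h arrays from 10.2 to 56.1. Fk_12h replicate 3 stood apart on the second component (66.4). Its correlations with the other two arrays of its group were 0.942 and 0.946, whereas the others correlated at 0.994 among themselves, and 1660 genes on it lay more than 1 unit from the mean of the others. Values without this array are given beside the results it moved most.

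All 6 epithelial markers, CDH1 among them, were bright enough to be tested, with KRT18 between 12.60 and 13.48 and EPCAM between 12.43 and 13.50. Markers of the differentiated proximal tubule were mostly absent. Of 10, 8 stayed under a value of 4 on every array, among them LRP2, CUBN, AQP1 and SLC34A1, while DPP4 ran from 10.62 to 11.96. GGT1 reached 4.14 at most. Of 5 matched distal tubule and collecting duct markers, 3 were under 4 on every array. The other 2 were tested, with CDH16 between 5.26 and 6.77. The endothelial markers CDH5, VWF and KDR, and all 3 matched leukocyte markers, were under 4 on every array, and PECAM1 reached 4.59 at most. Of 8 fibroblast and mesenchymal markers, COL1A2, COL3A1 and PDGFRB were under 4 throughout, and 5 were tested, with VIM between 14.02 and 14.72.

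The DNA before the start of 3 of these genes is shown because they are the members that passed a test or had separate 12 h and 48 h values in both treatments, among those with a promoter window in the RefSeq table used here. Windows run from 250 bases before to 50 after an annotated start, on GRCh38.p14, and 7 of the 10 listed genes had 1 or more, 13 in all. Capitals mark CAGGTG or CACCTG, the E-box letters that SNAI and ZEB repressors are known to bind. Each is the other read on the opposite strand, so both strands are covered. The windows are chr5:69492540-69492839 on the plus strand for OCLN, chr17:41785927-41786226 on the minus strand for JUP and chr18:28177081-28177380 on the minus strand for CDH2. CDH1, PKP2 and F11R had no window. OCLN, JUP and CDH2 have 2 annotated windows each, and for OCLN and JUP the one with more marked sites is printed.
OCLN: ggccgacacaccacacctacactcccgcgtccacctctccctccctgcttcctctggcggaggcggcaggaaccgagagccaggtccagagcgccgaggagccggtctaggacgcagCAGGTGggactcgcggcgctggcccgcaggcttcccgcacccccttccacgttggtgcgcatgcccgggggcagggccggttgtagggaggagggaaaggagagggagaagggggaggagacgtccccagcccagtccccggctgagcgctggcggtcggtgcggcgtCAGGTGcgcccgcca
JUP: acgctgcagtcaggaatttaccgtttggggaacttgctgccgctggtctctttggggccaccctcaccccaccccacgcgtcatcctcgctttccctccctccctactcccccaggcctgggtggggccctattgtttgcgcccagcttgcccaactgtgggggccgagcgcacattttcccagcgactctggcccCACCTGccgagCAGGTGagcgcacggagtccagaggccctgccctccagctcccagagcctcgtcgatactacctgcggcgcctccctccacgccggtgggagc
CDH2: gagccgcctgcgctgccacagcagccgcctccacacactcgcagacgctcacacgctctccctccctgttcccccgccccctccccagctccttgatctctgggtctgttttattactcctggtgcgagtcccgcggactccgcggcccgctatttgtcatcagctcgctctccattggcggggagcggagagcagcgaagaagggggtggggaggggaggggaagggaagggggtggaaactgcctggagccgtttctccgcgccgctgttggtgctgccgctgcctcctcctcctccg
In the OCLN window the letters begin 133 bases before and 35 bases after the start. The other OCLN window held them 1 time, 33 bases before its start. In the JUP window they begin 54 and 43 bases before it, and the other JUP window held none. Neither CDH2 window held any. The letters were found in 5 of the 13 windows, of 4 genes (OCLN, JUP, DSP and TJP1), against 20.6% of 35116 promoter windows of the same length. These are matches of letters and no measure of binding.

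**Figure D1:**
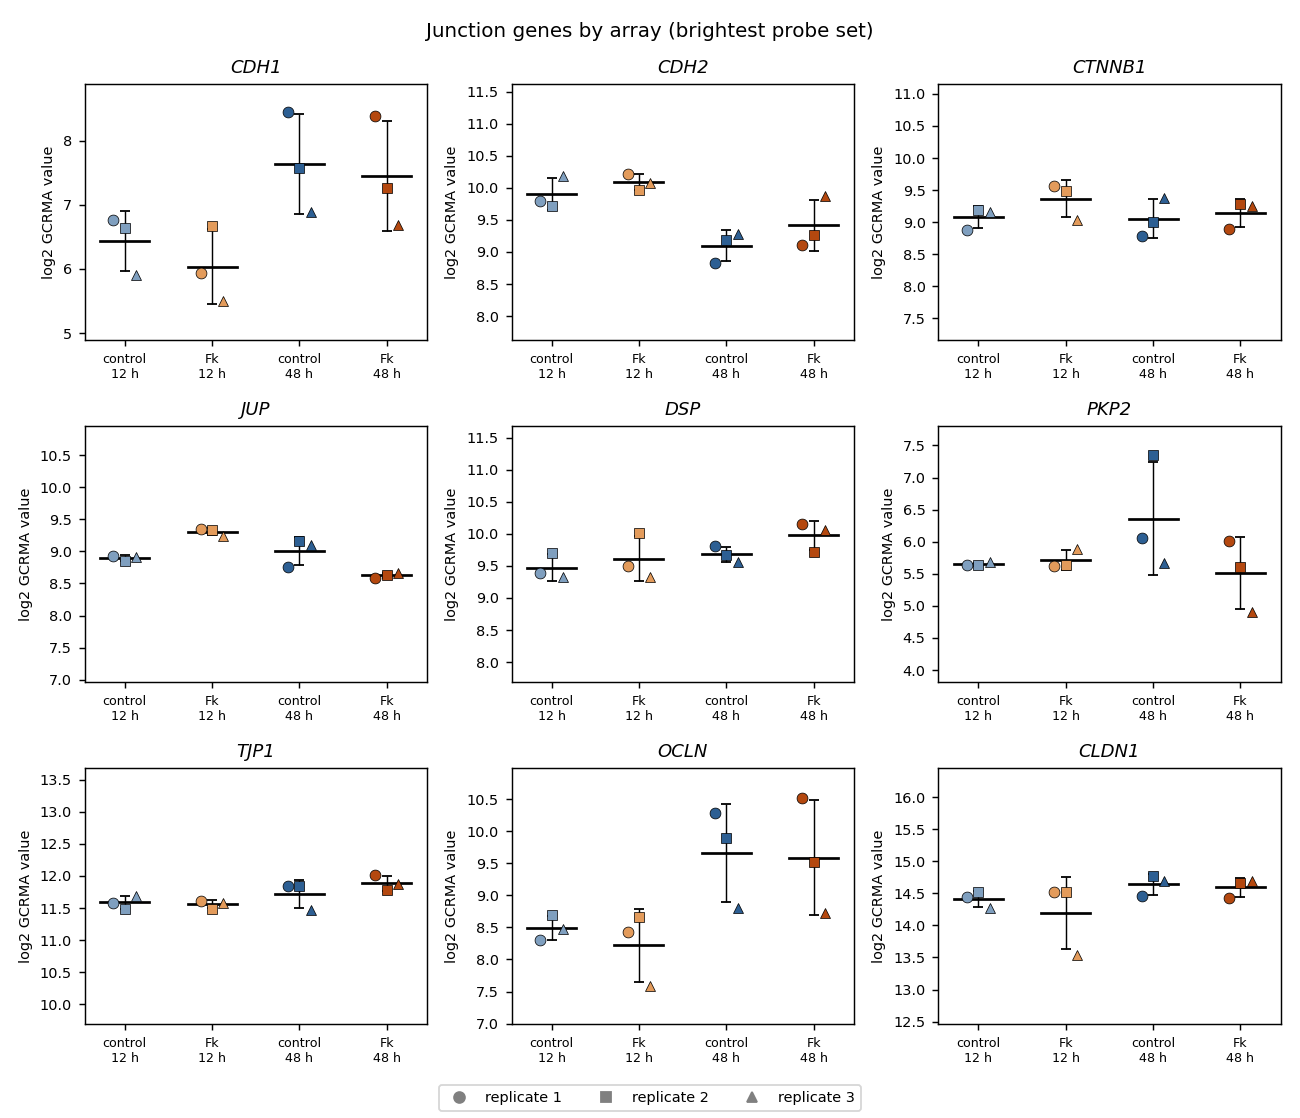
Log2 GCRMA value (vertical axis, 4 units high in each panel) of the brightest probe set of 9 junction genes on 12 arrays, by group (horizontal axis). Symbols are replicates, lines are group means and bars are SD (n = 3). CDH1 and OCLN sit higher and CDH2 lower at 48 h under both treatments, and JUP in Fk cultures sits above control at 12 h and below it at 48 h.

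CDH1 encodes E-cadherin, the cadherin that defines most epithelial adherens junctions, and lies at chr16:68737292-68835537. In control cultures its values were 6.77, 6.64 and 5.91 at 12 h and 8.45, 7.57 and 6.89 at 48 h. In Fk cultures they were 5.94, 6.66 and 5.50 at 12 h and 8.38, 7.27 and 6.68 at 48 h. Every 48 h value lay above every 12 h value of its treatment, while Fk and control overlapped at each time. The change from 12 h to 48 h was +1.20 in control cultures, or 2.29-fold, with a 95% interval of 0.086 to 2.31 (limma, adjusted p = 0.112). In Fk cultures it was +1.41, or 2.65-fold (interval 0.30 to 2.52, adjusted p = 0.0663). Without Fk_12h replicate 3 that change was +1.14 (adjusted p = 0.154), without Fk_48h replicate 1 it was +0.94 (adjusted p = 0.227), and without Fk_48h replicate 3 it was +1.79 and passed (adjusted p = 0.0342). The control change was +0.79 without control_48h replicate 1 (adjusted p = 0.351). The Fk effect was -0.40 at 12 h (interval -1.51 to 0.71) and -0.19 at 48 h (interval -1.30 to 0.92), and neither passed (adjusted p = 0.891 and 1.000). At 12 h it was -0.14 without Fk_12h replicate 3, and at 48 h it changed sign when Fk_48h replicate 3 (+0.19) or control_48h replicate 1 (+0.22) was left out. The second probe set of CDH1 stayed near 2.2 on all arrays, under the level of 4, and so holds no separate measurement.

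CDH2 encodes N-cadherin, the classical cadherin of proximal tubule and of many mesenchymal cells, and lies at chr18:27932879-28177130. Control cultures read 9.80, 9.72 and 10.18 at 12 h and 8.82, 9.18 and 9.28 at 48 h. Fk cultures read 10.22, 9.97 and 10.08 at 12 h and 9.11, 9.26 and 9.87 at 48 h. The times did not overlap in either treatment, and the treatments overlapped at both times. CDH2 fell by 0.81 in control cultures, a 1.75-fold difference (interval -1.28 to -0.34, limma, adjusted p = 0.0241). The fall in Fk cultures was -0.67 (interval -1.14 to -0.20, adjusted p = 0.0433). These calls lie near the threshold. The control call was lost when control_12h replicate 1 or 3 or control_48h replicate 1 or 2 was left out. It held in 18 of 23 alternatives, where adjusted p ran from 0.00383 to 0.0935, and the Fk call in 12 of 23, where it ran from 0.00148 to 0.153. Both counts include the alternative at adjusted p under 0.1, which repeats the main fit. Leaving out Fk_12h replicate 3 gave -0.68 in Fk cultures with an adjusted p of 0.0667. The dimmer probe set gave -0.60 and -0.68 for the same comparisons and did not pass. The Fk effect was +0.19 at 12 h and +0.32 at 48 h, with intervals from -0.28 to 0.66 and from -0.15 to 0.79, and did not pass.

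CTNNB1 encodes beta-catenin, which joins cadherins to alpha-catenin and also acts in Wnt signalling. Its brightest probe set read 8.88, 9.19 and 9.16 in control and 9.57, 9.49 and 9.04 in Fk cultures at 12 h, and 8.78, 9.00 and 9.38 against 8.89, 9.28 and 9.25 at 48 h. All groups overlapped. The Fk effect was +0.29 at 12 h, with an interval from -0.15 to 0.73, or +0.45 without Fk_12h replicate 3, and +0.09 at 48 h, with an interval from -0.35 to 0.53, and the change over time in control cultures was -0.02. Another probe set of the gene went the other way at 12 h. It read 6.10, 5.62 and 5.70 in control and 4.97, 5.29 and 4.95 in Fk cultures, so that the groups did not overlap. The change there was -0.73 (interval -1.30 to -0.17) and did not pass in the fit over 21899 probe sets (limma, adjusted p = 0.686). In that fit 0% of probe sets passed for Fk at 12 h. Over time in control cultures this probe set changed by -0.55, also without overlap. That change did not pass (limma, adjusted p = 0.161), where 17.9% of probe sets did. For Fk at 12 h, a mean over the gene's probe sets gave -0.18. The last probe set of the gene stayed under 4. The direction of CTNNB1 at 12 h thus depends on the probe set, and Fk_12h replicate 3 was the lowest of its group on both.

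**Figure D2:**
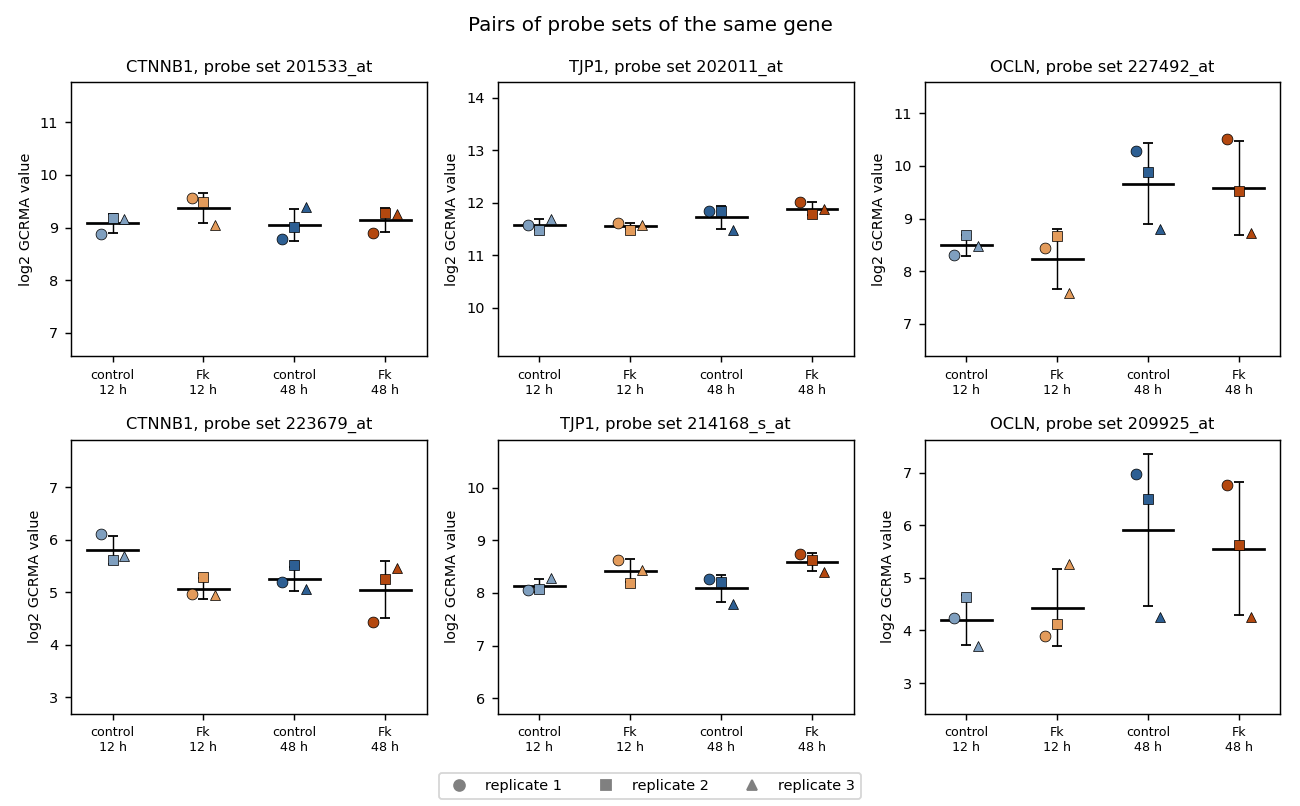
Log2 GCRMA values (vertical axis) of 2 probe sets each of CTNNB1, TJP1 and OCLN by group (horizontal axis), with group means and SD (n = 3). At 12 h the CTNNB1 probe sets point in opposite directions (+0.29 and -0.73), while both OCLN probe sets have higher means at 48 h.

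JUP encodes plakoglobin, also called gamma-catenin, the catenin found in adherens junctions and desmosomes alike, and lies at chr17:41754609-41786711. It had 1 probe set. At 12 h it read 8.94, 8.85 and 8.91 in control and 9.35, 9.33 and 9.24 in Fk cultures. At 48 h it read 8.76, 9.16 and 9.10 in control and 8.58, 8.63 and 8.66 in Fk cultures. All Fk values lay above control at 12 h and below it at 48 h. The means were 9.31 ± 0.06 (SD, n = 3) in Fk and 8.90 ± 0.05 in control at 12 h, and 8.63 ± 0.04 and 9.01 ± 0.22 at 48 h. In order of level, Fk at 12 h came first, then control at 48 h and control at 12 h, which overlapped, then Fk at 48 h.

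Within Fk cultures JUP was lower at 48 h than at 12 h by 0.68 log2 units, or 1.61-fold, and the interval ran from -0.95 to -0.42 (limma, adjusted p = 0.00396). This passed in all 23 alternatives run for it, with changes from -0.74 to -0.66 and adjusted p from 9.4e-05 to 0.0304, and it was -0.72 without Fk_12h replicate 3. Not all of these could move it. The gene has 1 probe set, so settings on the choice of probe set kept its values. The alternative at adjusted p under 0.1 repeats the main fit. In control cultures the change over the same time was +0.11 (interval -0.15 to 0.37, adjusted p = 0.540). The test of the difference between these, which is also the difference of the Fk effects at the 2 times, gave -0.80, with an interval from -1.17 to -0.42. It ranked 6 of 10784 genes by p and did not pass (adjusted p = 0.996). Over alternatives it ran from -0.92 to -0.72 (adjusted p from 0.069 to 1.000). Taken singly, the Fk effect was +0.41 at 12 h (interval 0.15 to 0.67) and -0.38 at 48 h (interval -0.65 to -0.12), and neither passed (adjusted p = 0.654 and 0.692). With array weights, which gave Fk_12h replicate 3 a weight of 0.121, the 12 h effect of +0.44 passed (adjusted p = 0.0351), in a fit where 156 genes in all did.

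DSP encodes desmoplakin, the plaque protein that anchors keratin to the desmosome. It read 9.38, 9.71 and 9.33 in control and 9.50, 10.01 and 9.33 in Fk cultures at 12 h, then 9.80, 9.67 and 9.57 against 10.15, 9.72 and 10.06 at 48 h. Groups overlapped in each comparison. The Fk effect was +0.14 at 12 h and +0.29 at 48 h, with intervals from -0.28 to 0.57 and from -0.13 to 0.72. The 12 h value became +0.28 when Fk_12h replicate 3 was left out and -0.06 when replicate 2 of that group was.

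PKP2 encodes plakophilin 2, which bridges desmosomal cadherins and desmoplakin. At 12 h it was steady, at 5.63, 5.64 and 5.68 in control and 5.62, 5.64 and 5.89 in Fk cultures. At 48 h it spread out, to 6.06, 7.35 and 5.67 in control and 6.01, 5.61 and 4.91 in Fk cultures. The 48 h groups overlapped, and control_48h replicate 2 was the highest by over 1 unit. The Fk effect at 48 h was -0.85 (interval -1.70 to 0.0056, adjusted p = 0.964), and it was -0.35 without control_48h replicate 2. At 12 h it was +0.07 with an interval from -0.79 to 0.92, and -0.02 without Fk_12h replicate 3. The difference between the times was -0.91, with an interval from -2.12 to 0.29, and did not pass. A second probe set was under 4 on every array.

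TJP1 encodes ZO-1, the scaffold that ties tight junction proteins to actin. It read 11.59, 11.49 and 11.68 in control and 11.61, 11.49 and 11.58 in Fk cultures at 12 h, then 11.85, 11.84 and 11.47 against 12.01, 11.78 and 11.87 at 48 h. Its Fk effect was -0.03 at 12 h and +0.17 at 48 h, with intervals from -0.31 to 0.26 and from -0.12 to 0.45. In Fk cultures the 48 h values were all above the 12 h values, by +0.33 in the mean (adjusted p = 0.0868). The dimmer probe set of TJP1 separated the treatments at 48 h. It read 8.73, 8.62 and 8.40 in Fk and 8.27, 8.20 and 7.79 in control cultures, a difference of +0.50 (interval 0.13 to 0.87) that did not pass among probe sets (limma, adjusted p = 0.750), where 0.00457% passed. At 12 h this probe set gave +0.28.

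OCLN encodes occludin, a membrane protein of tight junctions, and lies at chr5:69492547-69558104. Control cultures read 8.31, 8.69 and 8.47 at 12 h and 10.29, 9.89 and 8.80 at 48 h. Fk cultures read 8.43, 8.66 and 7.58 at 12 h and 10.51, 9.52 and 8.73 at 48 h. As for CDH1, all 48 h values exceeded the 12 h values of the same treatment. The change was +1.17 in control cultures, or 2.25-fold, in the mean (interval 0.11 to 2.23, limma, adjusted p = 0.106). In Fk cultures it was +1.36, or 2.57-fold (interval 0.30 to 2.43, adjusted p = 0.064). Without Fk_12h replicate 3, the lowest array, the Fk change was +1.04, without Fk_48h replicate 1 it was +0.90 (adjusted p = 0.220), and without Fk_48h replicate 3 it was +1.79 and passed (adjusted p = 0.0237). Leaving out control_48h replicate 3 gave +1.60 in control cultures (adjusted p = 0.0348) and brought the Fk change past the threshold (adjusted p = 0.0427). Of the other probe sets, 2 reached a value of 4 and gave +1.60 and +1.72 in control and +1.94 and +1.12 in Fk cultures, and another stayed under 4. The times overlapped in the second of these. In the first, Fk_12h replicate 3 read 2.59 and the Fk change was +1.24 without it. In the second it was +1.54 without that array. The Fk effect of the brightest was -0.27 at 12 h and -0.07 at 48 h, with intervals from -1.33 to 0.80 and from -1.14 to 0.99. At 12 h it was +0.06 without Fk_12h replicate 3. The other 2 probe sets disagreed on the Fk effect at 12 h, at -0.66 and +0.24, or +0.04 and -0.18 without that array.

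CLDN1 encodes claudin-1, a claudin that tightens the paracellular seal. It was high in signal on all arrays, at 14.44, 14.51 and 14.28 in control and 14.52, 14.52 and 13.54 in Fk cultures at 12 h, then 14.46, 14.77 and 14.69 against 14.42, 14.66 and 14.70 at 48 h. Fk_12h replicate 3 was the lowest, 0.97 below the mean of the other two. The Fk effect was -0.22 at 12 h, with an interval from -0.74 to 0.31, or +0.11 without that array, and -0.05 at 48 h, with an interval from -0.57 to 0.48. Both probe sets of the gene gave -0.22 at 12 h, and the dimmer one gave +0.23 without Fk_12h replicate 3.

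**Figure D3:**
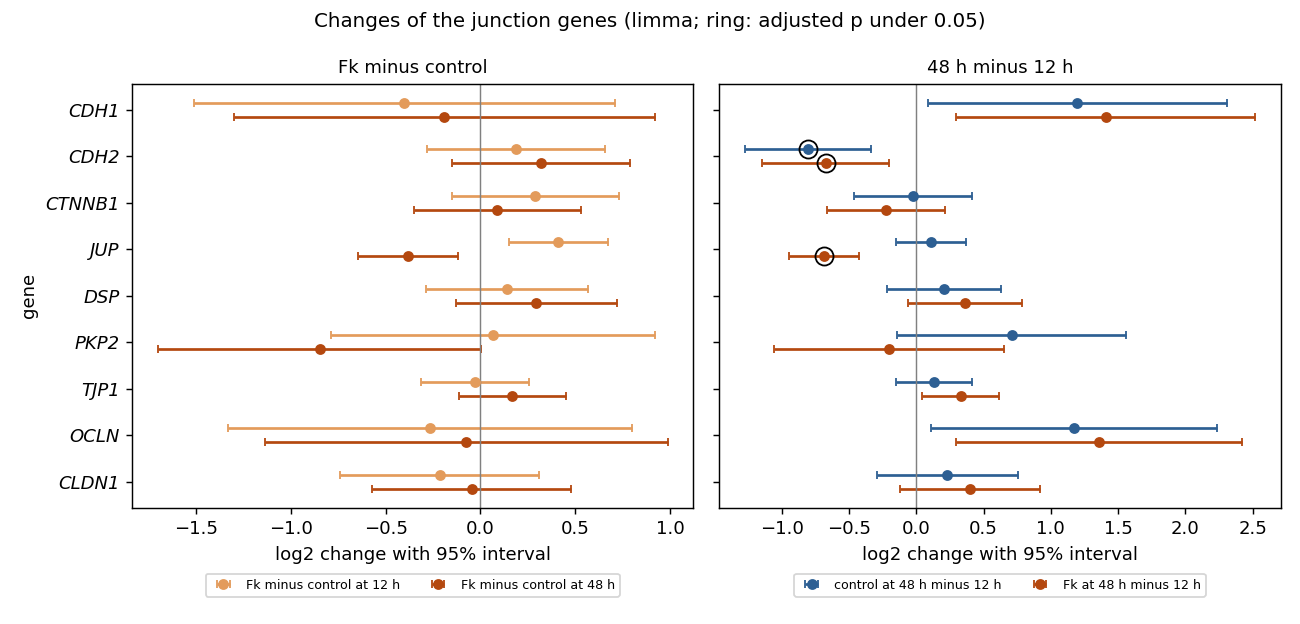
Log2 changes (horizontal axis) of the 9 genes with 95% intervals from limma, for Fk against control at each time (left) and for 48 h against 12 h in each treatment (right). Rings mark adjusted p under 0.05: CDH2 in both treatments over time and JUP in Fk cultures over time.

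The counts of members were set against all genes. By limma, 0 of 9 members passed for Fk at 12 h, where 0% of all genes passed, and 0 of 9 at 48 h, where again 0% passed. At an unadjusted p under 0.05, 1 of 9, JUP, was counted at each time, against 6.71% and 5.18% of all genes. At 12 h, Fk and control values did not overlap for 1 of 9 members, JUP, against 16.4% of all genes, 9.91% with Fk above as for JUP and 6.49% with Fk below. At 48 h they did not overlap for JUP alone, against 10.2% of all genes, 6.14% with Fk above and 4.02% with Fk below as for JUP. The median Fk effect of the members was +0.07 at 12 h and -0.05 at 48 h, beside +0.01 and +0.02 over all genes. The difference between the times passed for 0 of 9 members and 0% of all genes, and 1 of 9, JUP, had an unadjusted p under 0.05, as 3.31% of all genes did. The mean Fk effect over both times passed for 0 of 9 members and 0.00927% of all genes, and at an unadjusted p under 0.05 it counted 0 of 9 and 7.94%.

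Time gave more calls. Over time in control cultures 1 of 9 passed, CDH2, where 21.5% of all genes did, 10.6% higher and 10.9% lower at 48 h, and 3 of 9 had an unadjusted p under 0.05, against 36.4%. In Fk cultures 2 of 9 passed, CDH2 and JUP, where 23.2% of all genes did, 11.5% higher and 11.7% lower, and 5 of 9 had an unadjusted p under 0.05, against 37.7%. The 12 h and 48 h values did not overlap for 3 of 9 members in control cultures, against 50% of all genes, with CDH1 and OCLN above at 48 h (25.1% of all genes) and CDH2 below (24.9%). In Fk cultures they did not overlap for 5 of 9, against 38.7%, with CDH1, OCLN and TJP1 above (19%) and CDH2 and JUP below (19.7%). The median change over time was +0.21 for members in control and +0.33 in Fk cultures, beside +0.01 and +0.02 over all genes. With 9 members, these shares do not set the genes apart from the rest. The 95% interval of a member's Fk effect had a half-width from 0.26 (JUP) to 1.11 (CDH1). Adjustment over all genes asks for more than this: JUP's Fk effects exceeded its half-width at both times and did not pass.

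CDH1 and OCLN also varied in the same way among the 48 h arrays. In both genes the replicates 1 were the highest and the replicates 3 the lowest within each treatment. The scores of the first component had the same order, 51.2, 36.4 and 10.2 in control and 56.1, 34.3 and 13.3 in Fk cultures for replicates 1, 2 and 3. CDH2 had the opposite order in both treatments. The first component holds 55.4% of the variance of all tested genes. How many of them share either order was not counted. Replicates have no order of their own, and the labels do not say whether their numbers pair the arrays. At 48 h, same-numbered Fk and control arrays correlated at 0.798, -0.025 and 0.606 after centring on group means. The orders in the treatments may therefore not be independent observations. The part of this axis in the time changes was not tested.

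**Figure D4:**
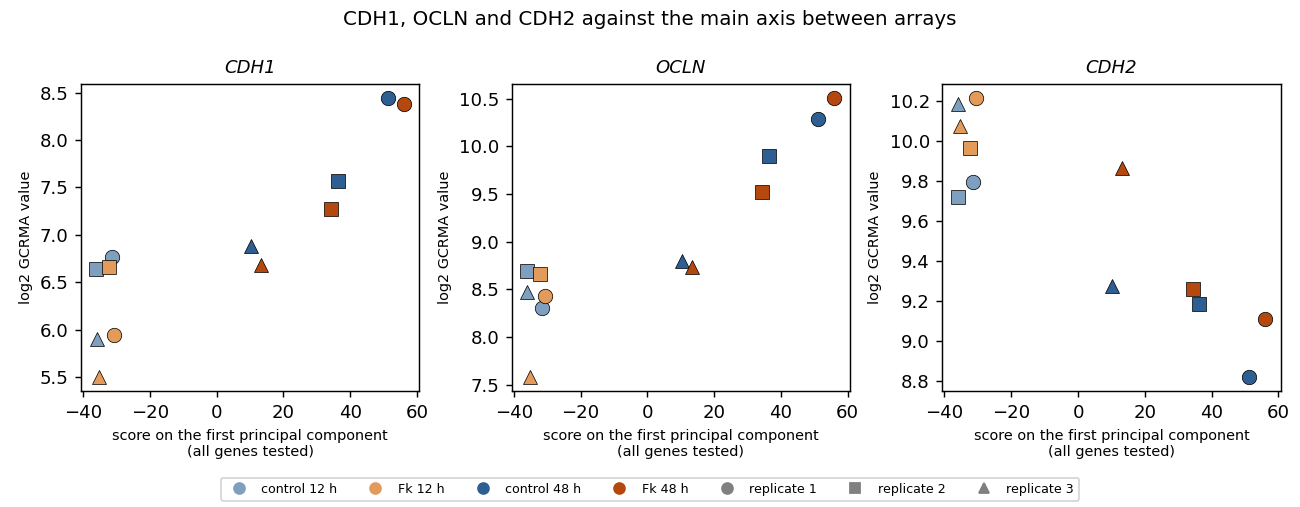
Log2 GCRMA values of CDH1, OCLN and CDH2 (vertical axes) against each array's score on the first principal component of 10784 genes (horizontal axis). Colours are groups and symbols replicates. CDH1 and OCLN are highest on the 48 h replicates 1 at scores of 51.2 and 56.1, where CDH2 is lowest.

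Among genes tested, the group means most like those of CDH1, after centring each gene on its own mean, were those of CLDN16, a claudin, with a root mean square difference of 0.037 over the 4 groups, and ING4, a chromatin-binding gene, with 0.039. For CDH2 they were ZFC3H1, which acts in nuclear RNA decay, at 0.017 and PHF10, a chromatin remodelling subunit, at 0.023. CLDN16 read 9.07 ± 0.59 and 8.69 ± 1.32 (SD, n = 3) in control and Fk cultures at 12 h, and 10.36 ± 0.34 and 10.14 ± 0.55 at 48 h. Its Fk value at 12 h rests on Fk_12h replicate 3, without which the mean was 9.43, above control. Without that array in all genes, CLDN16 ranked 399 in likeness to CDH1 (0.194) and ING4 ranked 5 (0.034), while for CDH2 ZFC3H1 ranked 2 (0.017) and PHF10 ranked 7 (0.037).

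Partners of the members were read from lists. Of 16 adherens junction partners 12 were tested, 0 passed for Fk at either time, and 1 of 12 fell over time in control cultures, where 10.9% of all genes fell. This was VCL, for vinculin, which links junctions and focal adhesions to actin, at -1.33 ± 0.37 (SE, limma, adjusted p = 0.0293), and -1.08 in Fk cultures (adjusted p = 0.0585). CDH16, the kidney-specific cadherin, had the smallest p for Fk, at +0.32 ± 0.27 at 12 h and -0.64 ± 0.27 at 48 h, and did not pass. The list's median change over time was -0.05 in control and -0.08 in Fk cultures.

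Of 12 desmosome and plakin genes 7 were tested. PPL, for periplakin, rose over time by +1.35 ± 0.40 in control (adjusted p = 0.0364) and +1.69 ± 0.40 in Fk cultures (adjusted p = 0.015), the single gene of 7 to pass in each, where 21.5% and 23.2% of all genes passed. DSG1, DSG3, DSC1, DSC3 and PKP1 were under 4 on every array. For Fk, 0 of 7 passed at either time, and the smallest p belonged to PPL at 12 h (-0.42 ± 0.40, or -0.08 without Fk_12h replicate 3) and to PKP3 at 48 h (-0.31 ± 0.12).

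Of 27 tight junction partners 18 were tested and 0 passed for Fk at either time. Their Fk effects were negative for 12 of 18 at 12 h and 10 of 18 at 48 h (medians -0.08 and -0.10). The mean effect over both times was negative for 14 of 18 (median -0.095), where 54.1% of all genes were positive. Whether the list leans lower than all genes was not tested. JAM2, a junctional adhesion molecule, rose over time by +1.40 ± 0.30 in control (adjusted p = 0.01) and +0.96 ± 0.30 in Fk cultures (adjusted p = 0.0405). PATJ, a polarity scaffold, rose by +0.71 ± 0.19 in control cultures (adjusted p = 0.0261). In Fk cultures the claudin gene CLDN3 rose by +0.83 ± 0.23 (adjusted p = 0.0265) and PALS1, which binds PATJ, fell by 0.35 (adjusted p = 0.0374). That makes 2 of 18 higher and 0 lower in control cultures, and 2 higher and 1 lower in Fk cultures. Over all genes 10.6% were higher and 10.9% lower in control cultures, and 11.5% and 11.7% in Fk cultures, so these counts lie near or below the background. CLDN3 did not pass without Fk_12h replicate 3 (adjusted p = 0.0505). For Fk, CGN, for cingulin, had the smallest p at 12 h (-0.55 ± 0.22) and PALS1 at 48 h (-0.20 ± 0.11), both without overlap of the groups. The groups did not overlap for 1 of 18 at 12 h and 3 of 18 at 48 h, against 16.4% and 10.2% of all genes.

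Of 17 factors that set the epithelial state 8 were tested. TWIST1, which represses E-cadherin in other settings, fell over time by 0.98 in control (adjusted p = 0.0166) and by 1.13 in Fk cultures (adjusted p = 0.0086), and was the single factor of 8 to pass in each, against the same shares of all genes. Its values were 8.73, 8.50 and 8.31 at 12 h and 7.73, 7.22 and 7.65 at 48 h in control cultures. KLF4 had the smallest p for Fk, at +0.81 ± 0.40 at 12 h and +0.97 ± 0.40 at 48 h, and did not pass. Its 12 h groups overlapped, and the 12 h value was +0.33 without Fk_12h replicate 3. Without that array its changes over time passed, at +0.80 in control (adjusted p = 0.0472) and +1.44 in Fk cultures (adjusted p = 0.00966). SNAI1 read 5.50, 5.27 and 7.71 in Fk cultures at 12 h, the last on Fk_12h replicate 3, against 5.24, 5.19 and 5.37 in control, and was chosen after its values were seen. Of 11 beta-catenin targets 4 were tested, and CCND1, the cyclin D1 gene, was lower over time by 2.24 ± 0.59 in control cultures (adjusted p = 0.024), with -1.69 in Fk cultures not passing (adjusted p = 0.0612). CCND1 was the single target of 4 to pass in control cultures, where 10.9% of all genes passed as lower. Without Fk_12h replicate 3 the Fk change was -1.99 (adjusted p = 0.0497). NOTUM (+0.23 ± 0.16 at 12 h, or +0.02 without Fk_12h replicate 3) and CCND1 (+0.31 ± 0.59 at 48 h) had the smallest p for Fk in that list.

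Some mesenchymal and epithelial markers moved over the same times. Of 5 tested fibroblast and mesenchymal markers, VIM fell in control cultures (-0.36) and COL1A1 (-0.87) and S100A4 (-0.96) in Fk cultures. That is 1 of 5 lower in control and 2 of 5 in Fk cultures, where 10.9% and 11.7% of all genes were lower. In the other treatment these genes did not pass, at -0.18 (VIM, Fk), -0.23 (COL1A1, control) and -0.34 (S100A4, control). ACTA2 and DCN did not pass, at +0.15 and -0.12 in control and +0.37 and +0.31 in Fk cultures (DCN +0.67 without Fk_12h replicate 3), so the list did not move one way. S100A4 did not pass without Fk_12h replicate 3 (-0.79, adjusted p = 0.0606). The log2 of the list's summed signal is almost VIM alone. It ran from 14.48 to 14.66 in control and from 14.62 to 14.79 in Fk cultures at 12 h, and from 14.09 to 14.38 and from 14.47 to 14.52 at 48 h. Of the 6 epithelial markers, KRT8 fell in both treatments (-0.59 in control and -0.56 in Fk cultures) and EPCAM rose in control cultures (+0.58). In each treatment 4 of the 6 had negative changes and 2, CDH1 and EPCAM, positive ones. The list's median change was -0.17 in control and -0.15 in Fk cultures, where 51.5% of all genes had positive changes. Over all genes 10.6% passed as higher and 10.9% as lower in control cultures, and 11.7% as lower in Fk cultures. KRT8 in Fk cultures did not pass without Fk_12h replicate 3 (adjusted p = 0.0510). Of the partner and marker calls over time given here, those of JAM2 in control cultures and of TWIST1 and COL1A1 in Fk cultures held with each array left out in turn, and each of the others was lost without at least 1 array. Whether these shifts have a part in those of CDH2 and CDH1 was not tested. In bulk RNA, fewer cells of one kind and less RNA per cell cannot be told apart.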

How the data were processed

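RNA of 12 HK-2 cultures was read on Affymetrix arrays. The authors deposited one log2 value for each probe set, made with GCRMA according to the submitters' processing notes, and the log2 scale was read from the range of values. The GCRMA version and the arrays normalized together are not given in the sources used here. Probe sets were named from the platform annotation (41097 with 1 symbol, 1801 with several, 11777 with none), with symbols updated by gene ID. Each gene was read by its brightest probe set. Tests used limma 3.58.1 in R 4.3.3, a mean per group over all 12 arrays, moderation by eBayes (2.44 prior degrees of freedom added to 8), two-sided p-values and Benjamini-Hochberg over all genes tested, called at adjusted p under 0.05. A separate fit held 21899 probe sets. The test was checked on simulated data with independent noise and no outlying array. That check does not cover arrays like Fk_12h replicate 3. The number of arrays limits the precision. Lists and members were chosen with earlier results of these data known. Partners named are up to 4 per list and comparison with the smallest adjusted p under 0.05, or else the smallest p. In all, 24 alternatives were run on the members. Leaving out single arrays for the partners, markers and like genes was chosen after seeing the data. Figures used matplotlib 3.10.9.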

Additional observations from a re-analysis of the deposited data

Results flagged for a closer look

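JUP drew attention because every Fk array lay above control at 12 h and below it at 48 h. The difference of the Fk effects, 48 h minus 12 h, was -0.80 log2 units (SE 0.17), and its test did not pass (limma, adjusted p = 0.996). Without Fk_12h replicate 3 it was -0.83 (adjusted p = 0.777). It was the single member of 9 with this pattern. Over all genes, 9.91% had every Fk value above control at 12 h and 4.02% had every Fk value below at 48 h. The share of all genes with both was not counted.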

How the results depend on the processing

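Of the 24 alternatives, 12 left out 1 array. Counts of members passing for Fk stayed at 0 except for 1 (JUP) at 12 h with array weights. Over time in control cultures, 1 member passed, but 0 with no filter, 3 with a replicate block across times, 4 with array weights and 0 to 2 with single arrays left out. Beside these, 2589 of 10784 genes passed with the block and 4920 with array weights. Without control_12h replicate 1 or 3 or control_48h replicate 1 or 2 the count was 0. In Fk cultures 2 passed, but 1 with no filter, with the mean of probe sets or with the groups compared alone, 4 with the block, 5 with array weights or at adjusted p under 0.1, and 1 to 4 with single arrays left out, 4 without Fk_48h replicate 3. The member probe sets called numbered 2 (of CDH2 and JUP), or 1 with no filter and 1 to 4 with single arrays left out. The block added CDH1 and OCLN in both treatments. The labels do not say whether replicate numbers pair the arrays. After centring on group means, same-numbered Fk and control arrays correlated at 0.041, 0.265 and 0.163 at 12 h and 0.798, -0.025 and 0.606 at 48 h. Different-numbered ones ran from -0.225 to 0.022 at 12 h and from -0.703 to 0.149 at 48 h. A replicate block within time left 0 members called for Fk. It could not be fitted to the time comparisons, which such a block contains.

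Uncalled Fk effects changed sign in these cases. At 12 h they were -0.18 (CTNNB1) and +0.13 (TJP1) with the mean of probe sets, and -0.013 (PKP2), +0.050 (OCLN) and +0.080 (CLDN1) with array weights. With single arrays left out they ran at 12 h from -0.058 to 0.28 (DSP), -0.075 to 0.020 (TJP1), -0.021 to 0.11 (PKP2), -0.48 to 0.056 (OCLN) and -0.38 to 0.11 (CLDN1). At 48 h they ran from -0.66 to 0.22 (CDH1), -0.048 to 0.25 (CTNNB1), -0.54 to 0.35 (OCLN) and -0.14 to 0.039 (CLDN1), and CTNNB1 was -0.044 with the mean of probe sets. Over time they ran from -0.19 to 0.11 (CTNNB1, control) and from -0.46 to 0.095 (PKP2, Fk). Causes were not tested. Counts over all genes moved too: 156 at 12 h and 94 at 48 h passed for Fk with array weights, and 1060 to 3438 (control) and 1297 to 2787 (Fk) over time with single arrays left out, with 5345 (Fk) under array weights, 2778 (Fk) with the block and 831 for Fk over time with those groups alone. The array weights were estimated gene by gene, since the default estimate did not converge.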
